A study of Mus musculus with 5 samples.

Results

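The lateral wall of the brain's ventricle and the tissue beside it were compared by poly(A) RNA sequencing. SVZ sample 2, the second biological replicate of the microdissected subventricular zone (SVZ), was set against STR, the microdissected striatum, which the design names as the non-neurogenic control tissue. The donors were wild-type C57BL/6 males, adult in age, and the dissected pieces were snap-frozen. Neither a treatment nor an engineered allele is recorded, and the sources used here do not state how many animals each library represents. Of the 20340 coding genes in the deposited table, 12945 had 1 FPKM or more (a level per transcript length, scaled to the mapped fragments of a library) in SVZ sample 2 or STR and were compared. The other 7395 were below that level in both libraries. SVZ sample 1, the first biological replicate, served as a check of direction, and the libraries of the olfactory bulb (OB) and of the hippocampal dentate gyrus (DG), 1 each, were used at the end.

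The SVZ is a thin layer in which new neurons are made throughout life. Ependymal cells with motile cilia line the ventricle. Beneath them lie astrocyte-like stem cells, their fast-dividing progeny, and neuroblasts that migrate to the olfactory bulb and become interneurons. The striatum borders this layer directly and consists mostly of GABAergic projection neurons of the direct and indirect pathways, with a minority of interneurons and with glia.

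Levels are given in FPKM, and a difference always means the log2(FPKM + 1) value of an SVZ sample minus that of STR. On this scale 1 unit is at least a 2-fold and 2 units at least a 4-fold difference in FPKM, because the added 1 understates the differences of low genes. SVZ sample 2 and STR are single libraries, so no test and no standard error can be given. Genes are sorted by size only, and "higher" or "lower" describes these libraries.

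The choice of SVZ sample 2 rests on the values of the table, since the labels name no batch. Of the 690 coding and noncoding RefSeq transcripts under 200 bases, 153 were at 1 FPKM or more in SVZ sample 2 and 161 in STR, against 24, 19 and 14 in SVZ sample 1, OB and DG. Gapdh, a glycolytic enzyme with many processed copies in the genome, was at 32.4 FPKM in SVZ sample 2 and 39.5 FPKM in STR but at 457 FPKM in SVZ sample 1. Across genes, the difference between SVZ sample 2 and STR was nearly unrelated to the GC content of transcripts, with a Spearman rho of -0.04. For SVZ sample 1 minus STR that rho was 0.57, and the median over all genes lay at 0.40 instead of 0.06. SVZ sample 1 is therefore read against that shift. The points of these correlations are genes of the same libraries and not independent replicates.

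Most of the coding transcriptome was alike in SVZ sample 2 and STR, and the differences lay to one side. The levels correlated across the 12945 genes with a Pearson r of 0.961. The 5th percentile of the difference was -0.50 and the 95th percentile 0.88. The markers of the labelled tissues were present, as the values of Foxj1, Dcx and Ppp1r1b given further on show. At least 2 units higher in SVZ sample 2 were 123 genes, which is 0.950% of those compared, and at least 2 units lower were 11 genes, which is 0.0850%. At least 1 unit higher were 523 genes, or 4.04%, and at least 1 unit lower 115 genes, or 0.888%. Over all 20340 coding genes these shares are 2.57% and 0.565%. Counts at 1 unit further on are to be read against these shares. By sign alone, 58.0% of the genes compared were above 0 and 42.0% below 0, and counts by sign further on are to be read against these shares. Among the higher genes, 98 differed by 2 to under 3 units, 23 by 3 to under 4 and 2 by 4 or more. The size limit cut through a continuum. Lrrc71, under its older symbol 4933430H15Rik, was just inside at 2.00 and Mcm6 at 2.02, while Ube2c was just outside at 1.96.

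**Figure D1:**
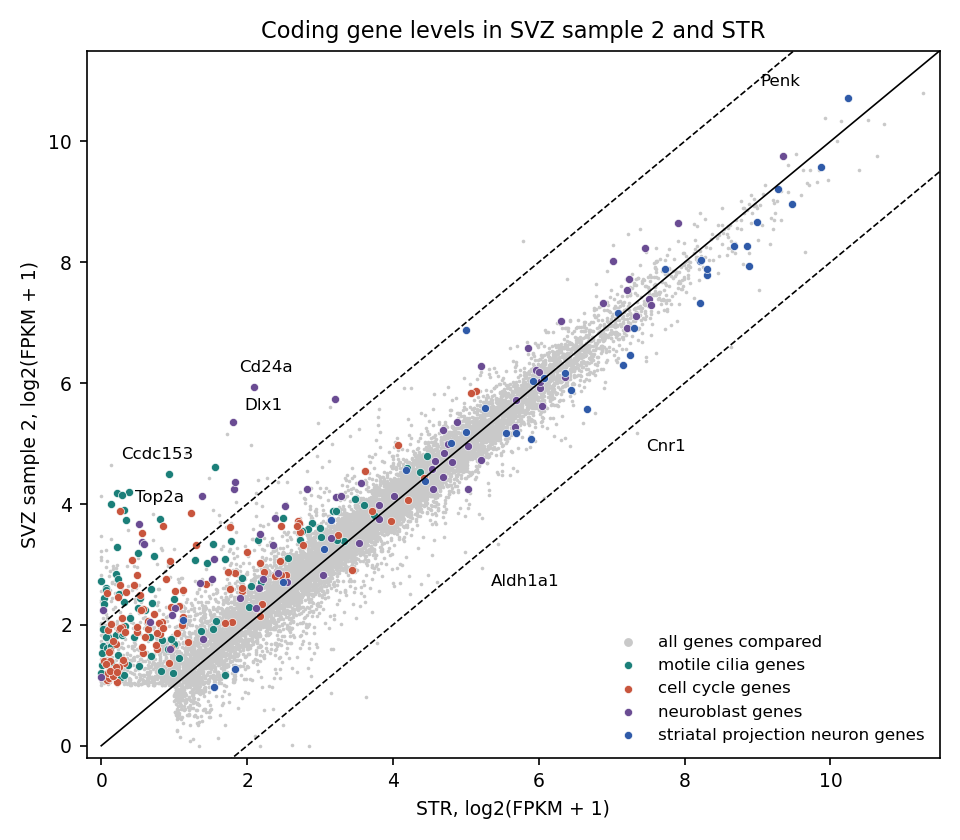
Each point is a coding gene, with its level in SVZ sample 2 on the vertical axis and in STR on the horizontal axis, both as log2(FPKM + 1). The solid line marks equal levels and the dashed lines 2 units either way. 123 genes lie on or above the upper line and 11 on or below the lower line. Of the motile cilia and cell cycle genes drawn, 57 of 92 and 59 of 103 lie under 1 FPKM in STR. Striatal projection neuron genes follow the line of equality.

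Genes of motile cilia made up the largest named block of the genes at least 2 units higher, with 21 of 123. At 1 unit the cell cycle genes, described further on, were more numerous, with 63. A motile cilium is built on an axoneme whose dynein arms slide its microtubule doublets, with radial spokes and a central pair that set the beat. Of 110 listed genes, 100 were in the table. Of these 100, 54 were at least 1 unit higher in SVZ sample 2 and none was at least 1 unit lower, against 2.57% and 0.565% of all coding genes. The median difference over the 100 was 1.25, and 97 lay above 0, as did 9549 of all 20340 coding genes. The level filter matters here, because 57 of the 92 members compared were at 1 FPKM or more in SVZ sample 2 but not in STR. The median of 1.33 over those 92 is therefore no independent measure. A smaller number of ciliated cells and less RNA per cell cannot be told apart in bulk tissue, here or in any result that follows.

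Dynein motors showed the pattern at the level of single subunits. Dynlrb2, a roadblock light chain, was at 15.1 FPKM in SVZ sample 2 and 40.0 FPKM in SVZ sample 1, against 0.0962 FPKM in STR, a difference of 3.87. Dnali1, the light intermediate chain of the inner arms, was at 8.73 and 22.3 FPKM in SVZ samples 2 and 1, against 0.159 FPKM in STR, a difference of 3.07. Both were near absent from STR and present in both SVZ libraries. Among the heavy chains, which carry the motor domain, Dnahc6 was highest in SVZ sample 2 at 4.95 FPKM, against 0.0447 FPKM in STR. The outer-arm heavy chains Dnahc5, Dnahc9 and Dnahc11 were at 2.48, 2.49 and 1.51 FPKM in SVZ sample 2, against 0.0662, 0.0462 and 0.0117 FPKM in STR. The heavy chains were thus scarce even in the SVZ, with a median of 2.28 FPKM over the 8 compared. Dnahc1, an inner-arm chain, differed least among them, at 2.71 FPKM in SVZ sample 2 and 1.58 FPKM in STR. Dnahc8 and Dnahc17 were under 1 FPKM in both libraries. In all, 10 of the 17 dynein subunits in the table were at least 1 unit higher, with a median of 1.53.

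The structures that tie the doublets together differed as much. Of the 23 radial spoke, central pair and nexin link genes, 16 were at least 1 unit higher and 7 at least 2. Ak7, an adenylate kinase of the axoneme, was at 17.2 FPKM in SVZ sample 2 and 27.9 FPKM in SVZ sample 1, against 0.160 FPKM in STR, a difference of 3.97. Rsph1 and Rsph4a, proteins of the radial spoke head, differed by 3.57 and 3.40. Rsph1 was the most abundant of these genes in SVZ sample 2 at 21.5 FPKM, with 47.2 FPKM in SVZ sample 1 and 0.896 FPKM in STR. Hydin, a giant protein of the central pair, was at 1.90 FPKM in SVZ sample 2 and 0.0100 FPKM in STR. Not all members separated the tissues. Gas8, Ccdc164 and Nme5 were well expressed in STR, at 8.06, 11.1 and 7.03 FPKM, and differed by 0.71, 0.38 and 0.59.

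Proteins of the doublet wall gave a similar picture. Of the 26 axonemal microtubule proteins, 18 were at least 1 unit higher, with a median of 1.53. Fam183b, a ciliary protein, was at 16.7 FPKM in SVZ sample 2 and 33.0 FPKM in SVZ sample 1, against 0.221 FPKM in STR. Enkur, a protein inside the doublet, was at 17.4 and 17.8 FPKM in SVZ samples 2 and 1, against 0.305 FPKM in STR, a difference of 3.82. Wdr16, now named Cfap52, was at 5.65 FPKM in SVZ sample 2 and listed at 0 in STR. Tektins, filament proteins of the doublet, differed unequally. Tekt1 was at 8.14 FPKM in SVZ sample 2 and 0.420 FPKM in STR, while Tekt5 was at 5.53 and 3.58 FPKM. The cytoplasmic factors that assemble and dock the dynein arms differed less, with 6 of 16 at least 1 unit higher and a median of 0.86. Among them Ccdc40, part of the ruler that spaces the arms, differed by 2.08, and the chaperone ATPase Ruvbl1 by 0.32, with 26.8 FPKM in SVZ sample 2 and 21.2 FPKM in STR.

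Intraflagellar transport, which builds primary and motile cilia alike, did not follow. None of the 31 intraflagellar transport and BBSome genes was at least 1 unit higher or lower, although all were at 1 FPKM or more in both libraries. Their median difference was 0.22, and the range ran from -0.14 for Ift52 to 0.78 for Dync2li1. Ift88, a core transport subunit, was at 8.98 FPKM in SVZ sample 2 and 10.6 FPKM in SVZ sample 1, against 7.59 FPKM in STR. Kif3a, a subunit of the transport motor, was at 38.4 FPKM in SVZ sample 2 and 35.4 FPKM in STR. As grouped here, motile cilia genes and transport genes thus stood apart by median, at 1.25 and 0.22, but their members overlapped. Of the 92 motile cilia genes compared, 38 differed by less than 1 unit. Among them Ccdc164, Nme5 and Gas8, at 0.38, 0.59 and 0.71, lay within the range of the transport genes.

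Regulators of multiciliated cells were mixed. Foxj1, the transcription factor that drives motile ciliogenesis (chr11:116192018-116196668 on mm9), was at 23.5 FPKM in SVZ sample 2 and 61.0 FPKM in SVZ sample 1, against 1.95 FPKM in STR. Its difference of 3.05 was the only one above 2 among the 18 regulators in the table, of which 4 were at least 1 unit higher. Myb, Trp73 and Ccdc78, which act in multiciliated cell differentiation and centriole amplification, differed by 1.72, 1.07 and 1.27, from low levels in SVZ sample 2 of 3.35, 1.18 and 1.82 FPKM. The RFX factors, which bind ciliary promoters, were also present in STR. Rfx3 was at 13.8 FPKM in SVZ sample 2 and 8.33 FPKM in STR, and Rfx1 at 9.51 and 9.07 FPKM. Rfx2 was low in STR, at 0.995 FPKM, against 2.23 and 9.15 FPKM in SVZ samples 2 and 1. Ccno, a cyclin-like protein of centriole amplification, was at 1.26 FPKM in SVZ sample 2 and 2.24 FPKM in STR. In SVZ sample 1 it was at 2.62 FPKM, so the SVZ samples lay on either side of STR.

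The letters in front of these genes can be set beside the values. RFX factors bind the X-box, searched here as GTTNCC and GGNAAC with 0 to 3 bases between them, a pattern that reads the same on both strands. In the RefSeq promoter table on GRCm38.p6, the 250 bases before the start held it in 3.70% of 81 promoters of motile cilia genes and in 0.764% of the 13357 promoters of all genes compared. The share for motile cilia rests on 3 promoters, and the share for intraflagellar transport and BBSome genes was 10.7%, or 3 of 28. The shorter RFX core GTTGCC on either strand, which lies within many X-boxes, was in 29.6% of the cilia promoters and 10.9% of all. Intraflagellar transport and BBSome promoters held this core in 28.6%, although those genes hardly differed between SVZ sample 2 and STR. A forkhead site, TGTTTAC on either strand, was searched in the same windows. It was in 2.47% of the cilia promoters and 2.16% of the promoters of all genes compared. Among the 111 promoters of the genes at least 2 units higher it was in 7.21%, or 8 promoters. Promoters were found for 73 of the 92 cilia genes. The windows below belong to all 4 genes with an X-box among those at least 2 units higher, with the X-box in capitals, and are shown because the match lies within 100 bases of the start.
Fam183b, chr11:58801961-58802010, minus strand: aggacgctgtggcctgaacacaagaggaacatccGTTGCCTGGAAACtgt
1700027A23Rik (now Pifo), chr3:106001498-106001551, minus strand: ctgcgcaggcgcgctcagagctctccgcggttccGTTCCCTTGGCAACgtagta
1110017D15Rik, chr4:41507765-41507816, minus strand: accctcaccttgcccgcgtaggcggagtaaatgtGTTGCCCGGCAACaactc
Iqca, chr1:90153489-90153570, minus strand: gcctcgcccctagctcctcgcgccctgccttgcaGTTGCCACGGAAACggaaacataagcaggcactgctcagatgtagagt
Counted from the start, the X-box of Fam183b spans positions -16 to -4 and that of Iqca, a nexin link gene, -100 to -87. Iqca was at 4.45 FPKM in SVZ sample 2 and 0.0270 FPKM in STR. 1700027A23Rik was at 6.75 FPKM in SVZ sample 2 and 0.407 FPKM in STR, and 1110017D15Rik at 13.2 and 2.07 FPKM. A match is a description of the letters and not a bound site.

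Ependymal genes that are not on the axonemal lists included the largest differences of all. Ccdc153, a coiled-coil gene used as an ependymal marker (chr9:44048760-44055389 on mm9), was at 23.9 FPKM in SVZ sample 2 and 55.0 FPKM in SVZ sample 1, against 0.0927 FPKM in STR, a difference of 4.51. Tmem212, a membrane protein of ependymal cells, was at 16.6 and 47.9 FPKM in SVZ samples 2 and 1 and listed at 0 in STR. Vim, the intermediate filament vimentin, was at 48.0 FPKM in SVZ sample 2 and 108 FPKM in SVZ sample 1, against 7.76 FPKM in STR, a difference of 2.48. Of the 18 genes on this list 8 were at least 1 unit higher, among them Mia1, Cdhr4, Calml4 and Meig1 at 3.21, 3.18, 2.75 and 2.70. The other 10, some of them shared with astrocytes, differed by less than 1 unit in SVZ sample 2. S100b, a calcium-binding protein of both cell types, was at 43.1 FPKM in SVZ sample 2 and 79.2 FPKM in STR. Kcnj16, a potassium channel, was at 4.58 FPKM in SVZ sample 2 and 4.62 FPKM in STR.

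**Figure D2:**
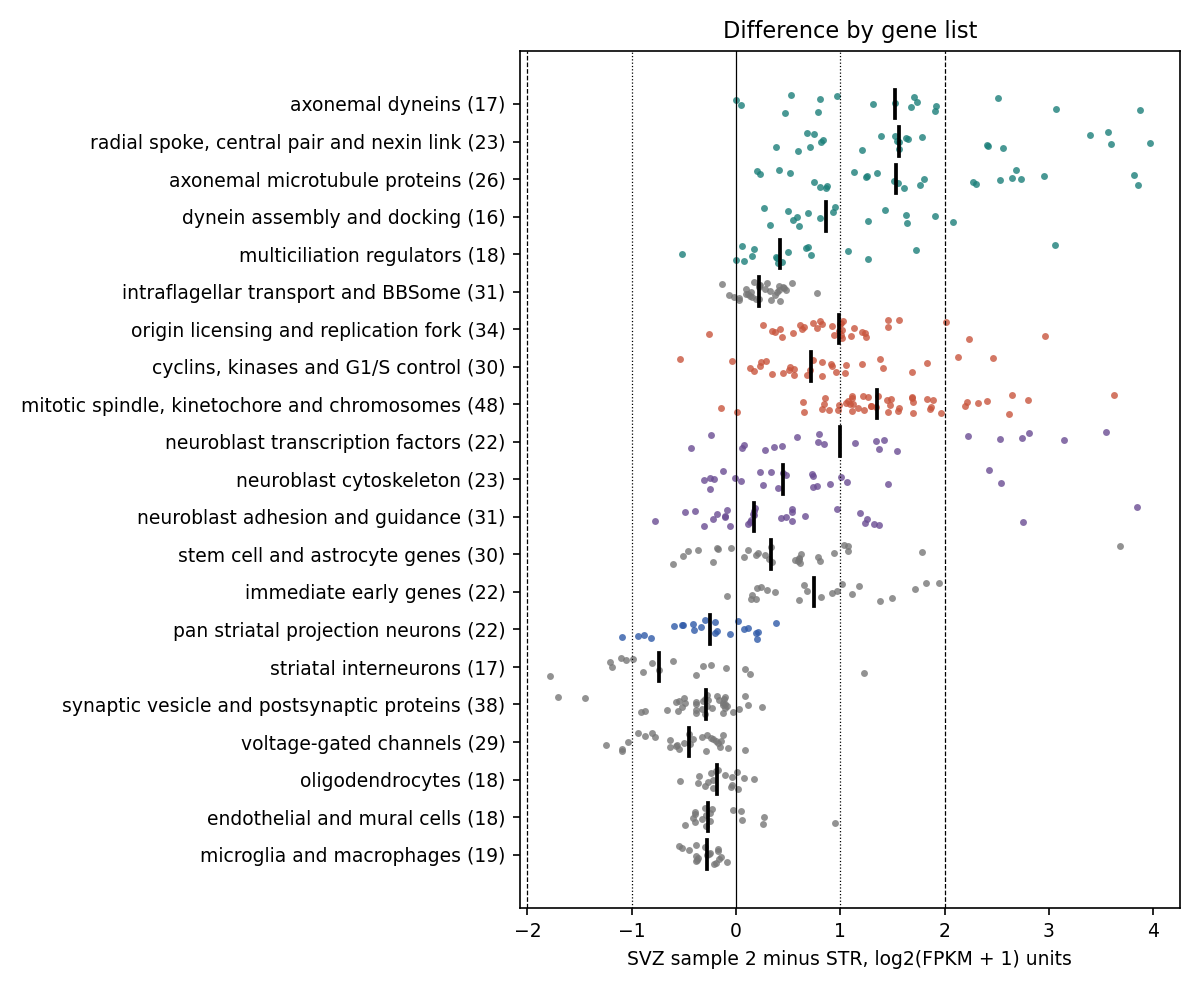
Each row is a gene list and each point a member found in the table, with the number of members in parentheses, and the position gives SVZ sample 2 minus STR in log2(FPKM + 1) units. The short black bars are medians over all members in the table, and the vertical lines mark 0, 1 and 2 units. Axonemal lists, cell cycle lists and neuroblast transcription factors reach beyond 2 units, intraflagellar transport reaches 0.78 at most, and the lists drawn from pan striatal projection neurons downwards, of neurons, synapses, channels, oligodendrocytes, vessels and microglia, have medians below 0.

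At 2 units or more, genes of dividing cells were the next block. Of 112 cell cycle genes, all in the table, 63 were at least 1 unit higher in SVZ sample 2, 13 at least 2 units higher and none at least 1 unit lower. Of all coding genes, 2.57% were at least 1 unit higher and 0.565% at least 1 unit lower. Of the genes compared, 0.950% were at least 2 units higher. The median over the 112 was 1.06. Of the 103 compared, 59 were at 1 FPKM or more in SVZ sample 2 but not in STR.

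The difference was widest for mitosis. Of the 48 genes of spindle, kinetochore and chromosomes, 38 were at least 1 unit higher, with a median of 1.35. Top2a, the topoisomerase that untangles replicated chromosomes (chr11:98854261-98885503 on mm9), was at 13.8 FPKM in SVZ sample 2 and 19.3 FPKM in SVZ sample 1, against 0.195 FPKM in STR, a difference of 3.63. Mki67, the antigen Ki-67 used to mark dividing cells, was at 7.38 and 11.3 FPKM in SVZ samples 2 and 1, against 0.336 FPKM in STR, a difference of 2.65. Both SVZ libraries lay far above STR for these genes. Nuf2 and Spc25, subunits of the kinetochore complex that grips microtubules, differed by 2.80 and 2.41, and the spindle motor Kif11 by 2.32. Hmgb2, a chromatin protein of cycling cells, was at 13.4 FPKM in SVZ sample 2 and 1.34 FPKM in STR. The other 10 genes included 8 between 0.65 and 0.99, such as the checkpoint gene Mad2l1 at 0.85. The remaining ones were Pttg1, the securin, at 20.6 FPKM in SVZ sample 2 and 20.5 FPKM in STR, and Anln, a cytokinesis protein that oligodendrocytes also make, at 15.8 FPKM in SVZ sample 2 and 17.5 FPKM in STR.

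DNA replication genes differed by smaller amounts. Of 34 origin and fork genes, 16 were at least 1 unit higher, with a median of 0.99. Rrm2, the cell cycle-regulated subunit of ribonucleotide reductase, was at 10.4 FPKM in SVZ sample 2 and 14.0 FPKM in SVZ sample 1, against 0.469 FPKM in STR, a difference of 2.96. Uhrf1, which maintains DNA methylation behind the fork, differed by 2.24. The helicase subunits Mcm2 to Mcm7 spread from 0.81 for Mcm4 to 2.02 for Mcm6, which was at 8.99 and 16.1 FPKM in SVZ samples 2 and 1, against 1.47 FPKM in STR. Pcna, the sliding clamp, was at 56.4 FPKM in SVZ sample 2 and 32.6 FPKM in STR, but at 26.7 FPKM in SVZ sample 1, so its direction did not hold in the other SVZ library. Dut, a nucleotide hydrolase, was at 12.2 FPKM in SVZ sample 2 and 14.8 FPKM in STR.

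The list of cyclins, kinases and G1/S control genes, which also holds mitotic genes, differed least among the cell cycle lists. Of its 30 genes, 9 were at least 1 unit higher, with a median of 0.72, and 28 lay above 0 and 2 below. The mitotic cyclins Ccnb1 and Ccna2 led the list. Ccnb1 was at 4.80 and 2.88 FPKM in SVZ samples 2 and 1, against 0.0518 FPKM in STR, a difference of 2.46. Ccna2 was at 7.35 FPKM in SVZ sample 2 and 0.915 FPKM in STR. D-type and E-type cyclins, which act before replication, were present in both tissues. Ccnd2 was at 57.7 FPKM in SVZ sample 2 and 34.3 FPKM in STR, Ccnd1 at 6.47 and 9.82 FPKM, and Ccne1 at 3.41 and 3.51 FPKM. E2f1 and Rb1, a factor and its repressor at the G1/S switch, differed by 0.13 and 0.17. Other members were higher, with Cdkn2c at 1.41, Cdk2 at 1.21, Cdk6 at 1.06 and Cdc25a at 1.05.

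Promoters of cell cycle genes carry known elements. The cell cycle homology region (CHR), here TTTGAA on either strand, is bound in late cell cycle genes, and the E2F site, here TTGGCGC or TTCCCGC on either strand, in replication genes. The CHR letters were in 24.2% of 95 promoters of cell cycle genes and 10.3% of promoters of all genes compared. The E2F letters were in 23.2% of the cell cycle promoters and 9.67% of all. Of all 32851 promoters of the RefSeq table, which include genes silent in these libraries, 5252 held the CHR letters. That is a larger share than the 10.3% among the genes compared. The E2F letters were in 5.62% of all 32851, a smaller share than 9.67%. Against this wider background the CHR share of cell cycle promoters stood out less, and the E2F share more. Windows are shown for 3 mitotic genes with the CHR close to the start and for Mcm6 with the E2F site nearer the start. The motif is in capitals.
Top2a, chr11:99024190-99024246, minus strand: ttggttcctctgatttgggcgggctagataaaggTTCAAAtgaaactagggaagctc
Kif11, chr19:37376329-37376381, plus strand: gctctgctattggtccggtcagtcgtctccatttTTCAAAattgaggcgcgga
Prc1, chr7:80294412-80294475, plus strand: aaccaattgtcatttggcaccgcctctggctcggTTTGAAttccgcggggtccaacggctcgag
Mcm6, chr1:128359711-128359785, minus strand: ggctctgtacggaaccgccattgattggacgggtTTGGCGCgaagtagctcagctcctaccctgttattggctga
In the windows shown, Top2a and Kif11 hold the CHR on the opposite strand, as TTCAAA. Top2a has another match farther from the start, at positions -179 to -174. Mcm6 has another E2F match too, at positions -109 to -103. Prc1, which bundles microtubules in the dividing cell, was at 5.77 FPKM in SVZ sample 2 and 9.27 FPKM in SVZ sample 1, against 0.853 FPKM in STR. These windows were chosen after the values were seen.

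**Figure D3:**
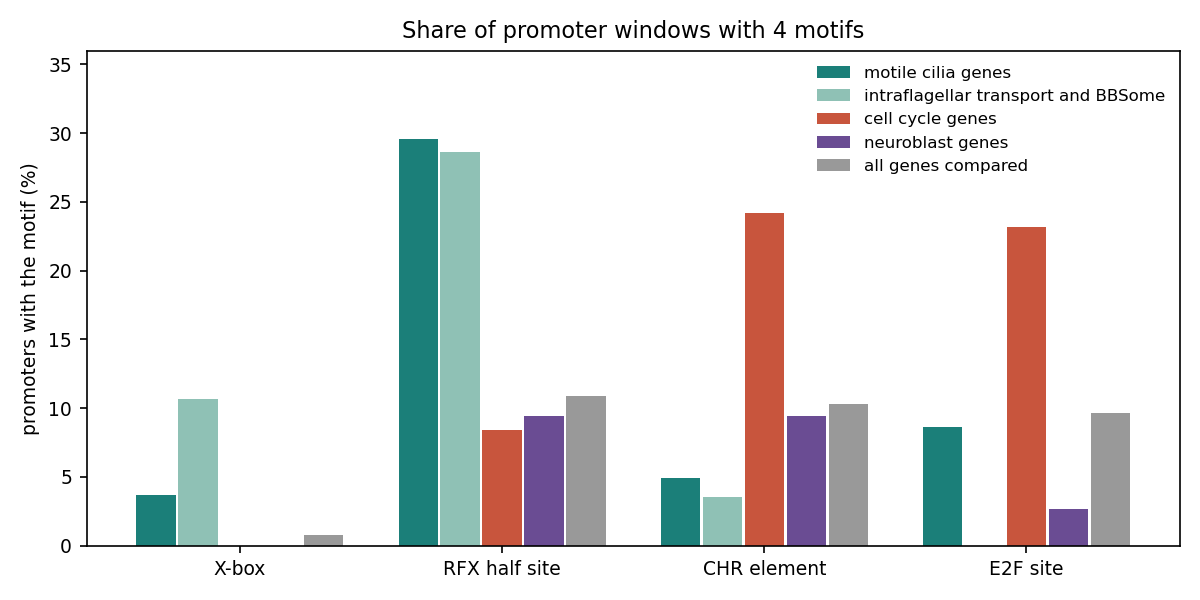
Bars give the share of RefSeq promoter windows, 250 bases before the start, that hold a motif on either strand, for 4 groups of genes and for all genes compared. The forkhead site is not drawn. The RFX core is in 29.6% of cilia promoters and 28.6% of intraflagellar transport promoters against 10.9% of all, while CHR and E2F are in 24.2% and 23.2% of cell cycle promoters against 10.3% and 9.67%.

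Neuroblast genes separated by role. Of 78 listed genes 76 were in the table, and 23 of these were at least 1 unit higher in SVZ sample 2, 10 at least 2 units higher and none at least 1 unit lower. Of all coding genes, 2.57% were at least 1 unit higher and 0.565% at least 1 unit lower. The median was 0.48. Nearly all were expressed in both tissues, with 67 of the 75 compared at 1 FPKM or more in both libraries.

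Transcription factors of the lineage differed most, with 11 of 22 at least 1 unit higher. Dlx1, a homeobox factor of forebrain interneurons (chr2:71291395-71375962 on mm9), was at 40.0 FPKM in SVZ sample 2 and 54.9 FPKM in SVZ sample 1, against 2.50 FPKM in STR, a difference of 3.55. The sources used here do not state strandedness, so reads of Dlx1 and of an antisense transcript cannot be told apart. Dlx2, Sox4, Sox11 and Sp8, factors of young neurons, differed by 2.81, 2.74, 2.53 and 2.23. Factors that mature striatal neurons keep did not differ by 1 unit in SVZ sample 2. Meis2 was at 143 FPKM in SVZ sample 2 and 135 FPKM in STR, and Dlx6 at 20.9 and 24.8 FPKM. Sp9, which indirect pathway neurons also express, was at 12.3 FPKM in SVZ sample 2 and 7.88 FPKM in STR, but at 39.5 FPKM in SVZ sample 1.

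Cytoskeletal genes showed a few large differences among many small ones. Dcx, the microtubule protein doublecortin that marks migrating neuroblasts, was at 17.95 FPKM in SVZ sample 2 and 16.3 FPKM in SVZ sample 1, against 2.54 FPKM in STR, a difference of 2.42. Marcksl1, an actin-regulating substrate of protein kinase C, was at 52.6 and 99.4 FPKM in SVZ samples 2 and 1, against 8.20 FPKM in STR, a difference of 2.54. Its paralogue Marcks differed by 1.07, Stmn1, which destabilises microtubules, by 1.01 and Dpysl3, a collapsin response mediator, by 1.45. The general neuronal tubulin Tubb3 was at 186 FPKM in SVZ sample 2 and 147 FPKM in STR, and the doublecortin-like kinase Dclk1 at 167 and 182 FPKM. In all, 5 of 23 were at least 1 unit higher.

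Among adhesion and guidance genes, 7 of 31 were at least 1 unit higher and the median was 0.17. Cd24a, a surface glycoprotein of neuroblasts and ependymal cells (chr10:43298975-43304071 on mm9), was at 60.4 FPKM in SVZ sample 2 and 62.1 FPKM in SVZ sample 1, against 3.27 FPKM in STR, a difference of 3.85. Igfbpl1, a growth factor-binding protein of young neurons, was at 9.15 and 17.4 FPKM in SVZ samples 2 and 1, against 0.503 FPKM in STR. Prokr2, a receptor that guides neuroblasts to the olfactory bulb, was at 3.83 FPKM in SVZ sample 2 and 1.02 FPKM in STR. Ncam1, whose polysialylated form covers neuroblasts, was at 71.5 FPKM in SVZ sample 2 and 63.1 FPKM in STR, while St8sia2, the enzyme that adds the polysialic acid, was at 9.03 and 4.13 FPKM. Reln, the secreted protein reelin, and the receptor Robo2 were lower in SVZ sample 2 by value, at -0.78 and -0.49.

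**Figure D4:**
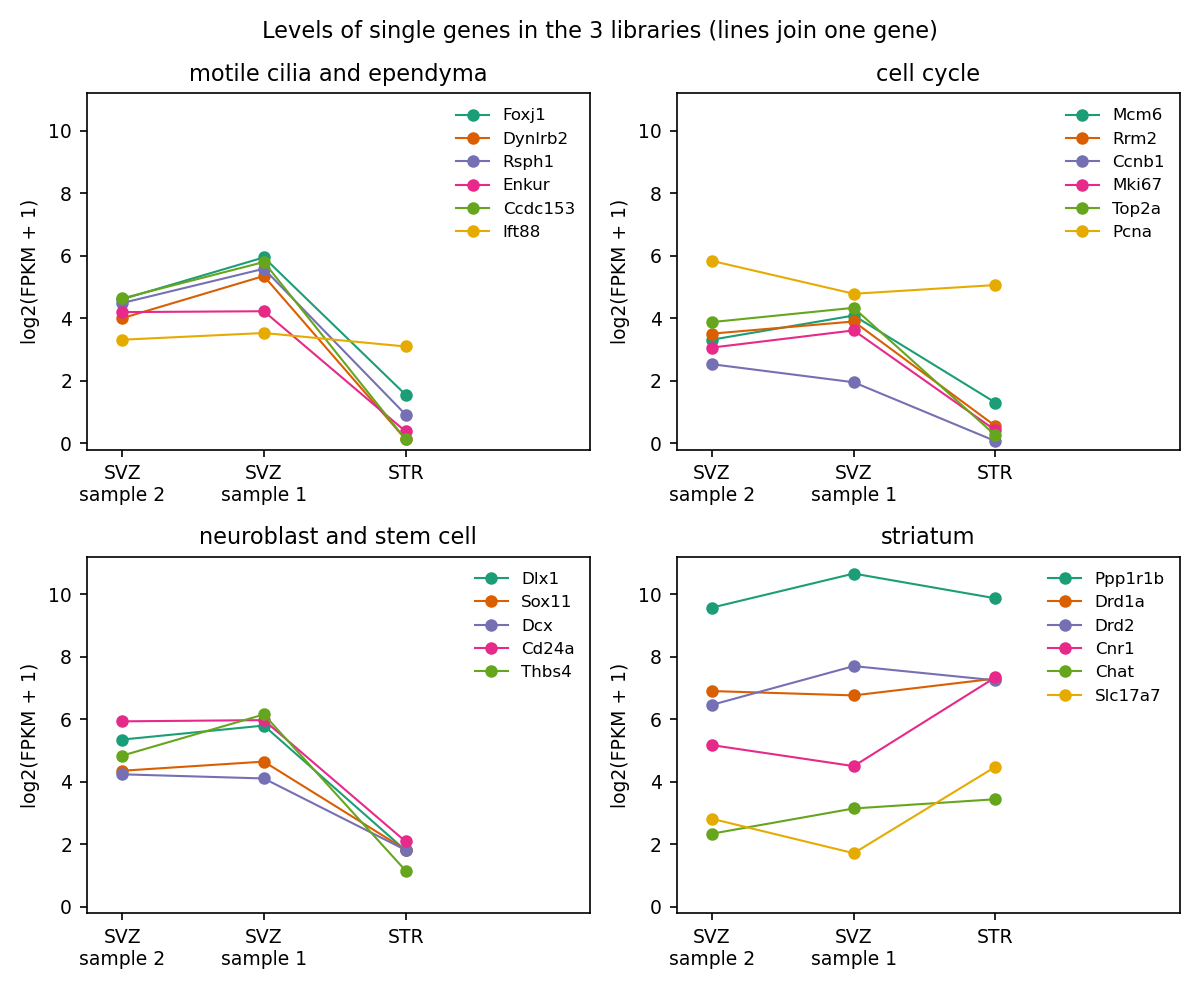
Levels of 23 named genes in SVZ sample 2, SVZ sample 1 and STR, as log2(FPKM + 1), with lines joining the same gene. Foxj1, Dynlrb2, Rsph1, Enkur and Ccdc153 are high in both SVZ samples and at 1.95 FPKM or less in STR while Ift88 is level, and in the last panel Cnr1, Chat and Slc17a7 are highest in STR while Ppp1r1b, Drd1a and Drd2 lie within 1 unit of STR in both SVZ samples.

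Stem cell and astrocyte genes differed by 1 unit in few cases in SVZ sample 2. Thbs4, a matrix protein of SVZ astrocytes (chr13:93521541-93564773 on mm9), was at 27.7 FPKM in SVZ sample 2 and 70.5 FPKM in SVZ sample 1, against 1.24 FPKM in STR, a difference of 3.68. Sox2, a factor of stem cells, was at 59.8 and 58.9 FPKM in SVZ samples 2 and 1, against 16.7 FPKM in STR, a difference of 1.78. Gfap, the intermediate filament of stem cells and reactive astrocytes, was at 43.2 FPKM in SVZ sample 2 and 20.6 FPKM in STR, a difference of 1.03. Nes, another filament, and Fabp7, a lipid-binding protein of radial glia, both differed by 1.08. These were the 5 of 30 genes at least 1 unit higher, and none was at least 1 unit lower. Several genes of astrocytes in general lay near equality in SVZ sample 2. Aldh1l1 was at 15.2 FPKM in SVZ sample 2 and 15.8 FPKM in STR, the water channel Aqp4 at 24.6 and 22.5 FPKM, and the glutamate transporter Slc1a2 at 524 and 594 FPKM. SVZ sample 1 differed here, with Aldh1l1 at 34.3 FPKM and 16 of the 30 genes at least 1 unit above STR, where 19.0% of all genes compared were. Its median over the list was 1.10, against 0.40 for all genes.

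Niche signals gave a small number of differences in both directions. Of 30 Notch and hedgehog genes, 2 were at least 1 unit higher and 1 was lower. Gas1 and Cdon, co-receptors for hedgehog, were at 3.98 and 6.34 FPKM in SVZ sample 2, against 1.17 and 2.63 FPKM in STR. Hhip, which binds and restrains hedgehog ligands, was at 2.63 and 1.46 FPKM in SVZ samples 2 and 1, against 6.58 FPKM in STR, a difference of -1.06. The pathway target Gli1 was under 1 FPKM in SVZ sample 2 and STR, at 0.621 and 0.227 FPKM, but at 2.24 FPKM in SVZ sample 1. Notch1 was at 10.6 FPKM in SVZ sample 2 and 9.56 FPKM in STR.

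Of 28 BMP and Wnt genes, 4 were at least 1 unit higher and 2 at least 1 unit lower. Sfrp1, a secreted Wnt antagonist, was at 11.95 FPKM in SVZ sample 2 and 16.1 FPKM in SVZ sample 1, against 2.09 FPKM in STR, a difference of 2.07. The Wnt receptor Fzd5 differed by 1.81 and the ligand Bmp6 by 1.23. Lrp2, an endocytic receptor of ependymal cells that clears BMP ligands, was at 1.43 FPKM in SVZ sample 2 and 0.0034 FPKM in STR. The secreted BMP antagonists were mixed. Chrdl1 was at 0.964 FPKM in SVZ sample 2 and 3.61 FPKM in STR, and Grem1 at 0.0789 and 1.39 FPKM. Nog, the antagonist noggin, was at 0.989 FPKM in SVZ sample 2, 1.73 FPKM in SVZ sample 1 and 1.03 FPKM in STR. Fst, the antagonist follistatin, was at 6.74 FPKM in SVZ sample 2 and 3.22 FPKM in SVZ sample 1, against 3.70 FPKM in STR, so the SVZ samples lay on either side of STR. Of 26 matrix genes of the ventricle wall none was at least 1 unit higher, and Hapln4, a link protein of perineuronal nets, was lower at -1.04.

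Of the 123 higher genes, 67 were on none of the lists, and the following were chosen as examples after their values were seen. Several carry a ciliary name in the current RefSeq table. Ccdc108, now Cfap65, was at 5.97 FPKM in SVZ sample 2 and 0.0735 FPKM in STR, 1700009P17Rik, now Cfap126, at 6.25 and 0.136 FPKM, and 1700003M02Rik, now Cfap206, at 6.05 and 0.127 FPKM. Capsl, a calcium-binding protein, was at 10.1 FPKM in SVZ sample 2 and listed at 0 in STR. Plac9, a small secreted protein with 3 loci under its symbol, was at 34.8 FPKM in SVZ sample 2 and 21.8 FPKM in SVZ sample 1, against 2.31 FPKM in STR. Others belong to dividing cells, such as Cdca7 at 2.95, Pbk at 2.76, 2810417H13Rik, now Pclaf, at 2.61 and Lmnb1, a lamin of the nuclear envelope, at 2.24.

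A further set encodes secreted proteins, a receptor and an enzyme. Rarres2, the secreted attractant chemerin, was at 30.6 FPKM in SVZ sample 2 and 91.9 FPKM in SVZ sample 1, against 3.14 FPKM in STR. Lbp, which binds bacterial lipopolysaccharide, was at 5.44 and 19.6 FPKM in SVZ samples 2 and 1, against 0.108 FPKM in STR. Cxcr4, a chemokine receptor, was at 5.41 and 10.4 FPKM in SVZ samples 2 and 1, against 0.139 FPKM in STR. For each of them both SVZ libraries were above STR. Hdc, which makes histamine, was at 5.07 FPKM in SVZ sample 2 and 0.396 FPKM in STR.

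The SVZ libraries held the transcripts of striatal neurons at nearly the striatal level. Of 38 striatal projection neuron genes, 1 was at least 1 unit higher in SVZ sample 2 and 1 lower, and the median was -0.25. Ppp1r1b, the signalling protein DARPP-32, was at 765 FPKM in SVZ sample 2 and 1627 FPKM in SVZ sample 1, against 940 FPKM in STR. Drd1a, the dopamine receptor of the direct pathway, was at 119 and 108 FPKM in SVZ samples 2 and 1, against 158 FPKM in STR. Drd2, that of the indirect pathway, was at 87.5 and 208 FPKM in SVZ samples 2 and 1, against 151 FPKM in STR, so the SVZ samples lay on either side of STR. The indirect pathway peptide Penk was at 1684 FPKM in SVZ sample 2 and 1213 FPKM in STR. The lower gene was Rasgrp2, a Rap activator, at 46.7 FPKM in SVZ sample 2 and 101 FPKM in STR, but level with STR in SVZ sample 1 at 100.4 FPKM.

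Single genes expressed in STR departed from this by more than the rest. Cnr1, the cannabinoid receptor (chr4:34011607-34035806 on mm9), was at 35.2 FPKM in SVZ sample 2 and 21.7 FPKM in SVZ sample 1, against 162 FPKM in STR, a difference of -2.17. Crym, a thyroid hormone-binding protein, was at 210 and 517 FPKM in SVZ samples 2 and 1, against 82.5 FPKM in STR, a difference of 1.34. In the mouse striatum Cnr1 is known to be strongest dorsolaterally and Crym medially. Nnat, a small membrane protein on the striosome and matrix list, was at 326 and 529 FPKM in SVZ samples 2 and 1. Its level in STR was 54.3 FPKM, a difference of 2.56. Its levels in OB and DG, 299 and 117 FPKM, were above that in STR too. Pdyn, the dynorphin precursor of direct pathway neurons, was at 116 and 133 FPKM in SVZ samples 2 and 1, against 31.2 FPKM in STR. All of these lay on the same side of STR in both SVZ libraries. Of 14 striosome and matrix genes, 4 were at least 1 unit higher and 1 lower, while Oprm1, the opioid receptor that defines striosomes, was at 1.63 FPKM in SVZ sample 2 and 1.03 FPKM in STR. Gpr155 and Rgs4, signalling genes of striatal neurons, were at 30.2 and 186 FPKM in SVZ sample 2, against 85.1 and 519 FPKM in STR.

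Interneuron genes leaned to the striatum in SVZ sample 2. Of 17 such genes, 5 were at least 1 unit lower in SVZ sample 2 and 1 was at least 1 unit higher, against 0.565% and 2.57% of all coding genes. The median was -0.74. With SVZ sample 1 in its place, the median over the 16 compared was 0.10, against 0.40 for all genes. There 3 were at least 1 unit lower, and 10 of the 16 kept their sign. Genes of cholinergic cells were among the lower ones in SVZ sample 2. Chat, the acetylcholine-synthesising enzyme, was at 4.08 FPKM in SVZ sample 2 and 7.89 FPKM in SVZ sample 1, against 9.90 FPKM in STR, a difference of -1.10. Slc5a7, the choline transporter, was at 7.67 and 5.73 FPKM in SVZ samples 2 and 1, against 17.1 FPKM in STR. For both genes the SVZ libraries were below STR. Pvalb, the calcium buffer of fast-spiking cells, was at 12.9 and 3.09 FPKM in SVZ samples 2 and 1, against 30.8 FPKM in STR. Cck, the neuropeptide cholecystokinin, was at 8.19 and 6.83 FPKM in SVZ samples 2 and 1, against 30.6 FPKM in STR. Sst and Npy, peptides of another interneuron class, were level at 227 and 73.2 FPKM in SVZ sample 2, against 242 and 69.0 FPKM in STR. The higher gene was Calb2, calretinin, which many young olfactory interneurons also make, at 3.65 FPKM in SVZ sample 2 and 0.981 FPKM in STR.

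Markers of cortical excitatory neurons, cells of the tissue next to the striatum, pointed both ways. Of the 18 compared, 8 were above 0 and 10 below in SVZ sample 2, with a median of -0.02. Slc17a7, the vesicular glutamate transporter of cortical neurons, was at 6.07 FPKM in SVZ sample 2 and 2.29 FPKM in SVZ sample 1, against 21.4 FPKM in STR, a difference of -1.67. Neurod6, a factor of cortical neurons, was at 1.08 and 0.174 FPKM in SVZ samples 2 and 1, against 2.49 FPKM in STR. Emx2 and Lhx2, cortical factors that are also made in the SVZ and in other cells, were at 8.44 and 17.5 FPKM in SVZ sample 2, against 4.19 and 10.4 FPKM in STR. Of 22 genes on the list, 2 were at least 1 unit lower and none higher, and the summed level of the 18 compared was 274 FPKM in SVZ sample 2, 349 FPKM in SVZ sample 1 and 282 FPKM in STR. Emx1 and Neurod1 were under 1 FPKM in all 3 libraries. Cck, Nrgn and other genes that cortical neurons share were lower with Slc17a7, and the part that such cells have in those differences was not tested.

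Synapse and channel genes were slightly but broadly lower. Of 38 synaptic genes, 34 were below 0, against 42.0% of all genes compared, with a median of -0.29, while only Syt2 and Vamp1 were at least 1 unit lower. Syt2, a calcium sensor of fast synapses, was at 5.40 and 8.45 FPKM in SVZ samples 2 and 1, against 19.9 FPKM in STR, a difference of -1.71. Vamp1, a vesicle fusion protein, was at 12.6 and 15.2 FPKM in SVZ samples 2 and 1, against 36.2 FPKM in STR. The abundant Snap25 was at 639 FPKM in SVZ sample 2 and 904 FPKM in STR. Of 29 voltage-gated channels, 28 were below 0, with a median of -0.45. Kcnc2, Kcnq3, Hcn2 and Kcna2 were at least 1 unit lower, at -1.25, -1.10, -1.09 and -1.04. Calcium channel subunits named Cacna were all below 0, 11 of 11, with a median of -0.33. With SVZ sample 1 in its place, the medians were 0.03 for synaptic genes and -0.37 for channels, against 0.40 for all genes.

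The largest differences towards the striatum were few and heterogeneous. Gpr139, an orphan receptor, was listed at 0 in SVZ sample 2 and at 0.339 FPKM in SVZ sample 1, against 6.21 FPKM in STR. Aldh1a1, a retinaldehyde dehydrogenase (chr19:20676472-20717952 on mm9), was at 6.66 and 4.67 FPKM in SVZ samples 2 and 1, against 36.3 FPKM in STR, a difference of -2.28. Ace, the angiotensin-converting enzyme, was at 2.25 and 2.38 FPKM in SVZ samples 2 and 1, against 12.8 FPKM in STR. In these cases both SVZ libraries were below STR. Cd72, a B cell surface protein, was at 0.262 FPKM in SVZ sample 2 and 4.65 FPKM in STR. Tmem161b, a membrane protein, was at 0.0057 FPKM in SVZ sample 2, 2.53 FPKM in SVZ sample 1 and 5.14 FPKM in STR. Others of the 11 lower genes belong to families with many near-identical copies, whose reads the authors' counting could split, and are uncertain. Rpl29 was at 0.833 FPKM in SVZ sample 2, 225 FPKM in SVZ sample 1 and 7.91 FPKM in STR, Rpl7a at 0.756, 25.1 and 11.4 FPKM, and Ppia at 96.1, 459 and 399 FPKM. Rps12 and H2-T9 belong to such families too, and Cnr1, described above, completes the 11.

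Histone genes ran against the cell cycle genes, with the same uncertainty. Of 47 compared genes whose symbols begin with Hist, 41 were below 0 in SVZ sample 2 minus STR, with a median of -0.62, and 3 were at least 1 unit lower. Most histone messages lack a poly(A) tail, and these genes are near-identical copies. Hist1h2ao was at 0.730 FPKM in SVZ sample 2 and 2.79 FPKM in STR, and Hist2h2be, a polyadenylated variant, at 6.97 and 3.81 FPKM.

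Glia and vessels were at like levels. None of 18 oligodendrocyte, 9 precursor, 18 endothelial and mural or 19 microglial genes differed by 1 unit either way, with medians of -0.18, -0.02, -0.27 and -0.28. Mbp, myelin basic protein, was at 1301 FPKM in SVZ sample 2 and 1468 FPKM in STR. Pdgfra, the receptor of precursors, was at 11.6 FPKM in SVZ sample 2 and 11.8 FPKM in STR. Every microglial gene was below 0, for example Csf1r, the growth factor receptor, at 20.4 FPKM in SVZ sample 2 and 29.6 FPKM in STR. In SVZ sample 1 Csf1r was at 40.6 FPKM, so the direction did not hold there.

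Markers of neighbouring tissue moved with some of the results. Of the 16 choroid plexus genes listed, 7 passed 1 FPKM in SVZ sample 2 or STR, with a summed level of 104 FPKM in SVZ sample 2, 95.03 FPKM in SVZ sample 1 and 97.3 FPKM in STR. Most of that sum is Enpp2, a lysophospholipase that oligodendrocytes also make. Ttr, transthyretin, was at 18.2 and 15.1 FPKM in SVZ samples 2 and 1, against 6.37 FPKM in STR, and Folr1 at 2.26 and 5.19 FPKM, against 0.220 FPKM. The choroid plexus genes Kcne2, Cldn2 and Aqp1 were at 0.458, 0.144 and 0.210 FPKM in SVZ sample 2, against 0.0773, 0.0355 and 0.0562 FPKM in STR. Choroid plexus cells carry cilia of their own, and their part in the cilia result was not tested. Of 13 septal genes 1 was at least 1 unit higher, the neuropeptide Nts, at 39.3 and 46.4 FPKM in SVZ samples 2 and 1, against 6.83 FPKM in STR, while the septal factors Zic1 and Zic4 were lower by value. Among 12 meningeal genes Aebp1, a matrix protein, was higher at 2.25, and Col1a1, Col3a1 and Lum were under 1 FPKM in SVZ sample 2 and STR.

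Immediate early genes, which neuronal activity and tissue handling both induce, were higher in the SVZ. Of 22 genes, 8 were at least 1 unit higher and 21 above 0, against 4.04% and 58.0% of all genes compared. The median was 0.75. Fos was at 19.7 FPKM in SVZ sample 2 and 30.5 FPKM in SVZ sample 1, against 4.35 FPKM in STR, a difference of 1.95. Fosb and Egr2 differed by 1.82 and 1.71, and Egr1 by 0.20. Heat shock and stress genes had 3 of 21 at least 1 unit higher, Txnip, Gadd45g and Mt2, and the chaperone Hspa1a was at 4.63 FPKM in SVZ sample 2 and 4.08 FPKM in STR. The part of either group in the other differences was not tested. Mitochondrial chain genes had no member beyond 1 unit, and among 12 reference genes only Ppia had one.

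The direction of the higher genes held in SVZ sample 1. That comparison shares STR with the main one, so both contain the same STR values. SVZ sample 1 was above STR for all 123 higher genes and by at least 1 unit for all of them, where 19.0% of all genes compared were, and the smallest of its differences was 1.88. It was below STR for 8 of the 11 lower genes, where 27.2% of all genes were.

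The higher genes can also be viewed without STR, in libraries that the comparison did not use. In SVZ sample 1 they were at least 1 unit above OB for 108 of 123 genes and above DG for 118, against 7.73% and 12.3% of all genes compared. The blocks differed in this. All 21 cilia genes at least 2 units higher than STR were also at least 1 unit above both OB and DG, where 5.43% of all genes compared were. Of 13 such cell cycle genes, 13 were at least 1 unit above OB and 12 above DG. The exception was Mcm6, at 16.1 FPKM in SVZ sample 1 and 21.5 FPKM in DG. Of 10 such neuroblast genes, only 3 were at least 1 unit above OB, the target of the migration, while 9 were above DG. Dlx1 was at 54.9 FPKM in SVZ sample 1, against 167 FPKM in OB and 6.58 FPKM in DG, and Sp8 at 4.47 FPKM, against 45.4 and 0.171 FPKM. Dcx was at 16.3 FPKM in SVZ sample 1, against 37.5 and 3.90 FPKM. Cd24a was among those above OB, at 62.1 FPKM in SVZ sample 1, against 21.6 FPKM in OB and 5.18 FPKM in DG.

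**Figure D5:**
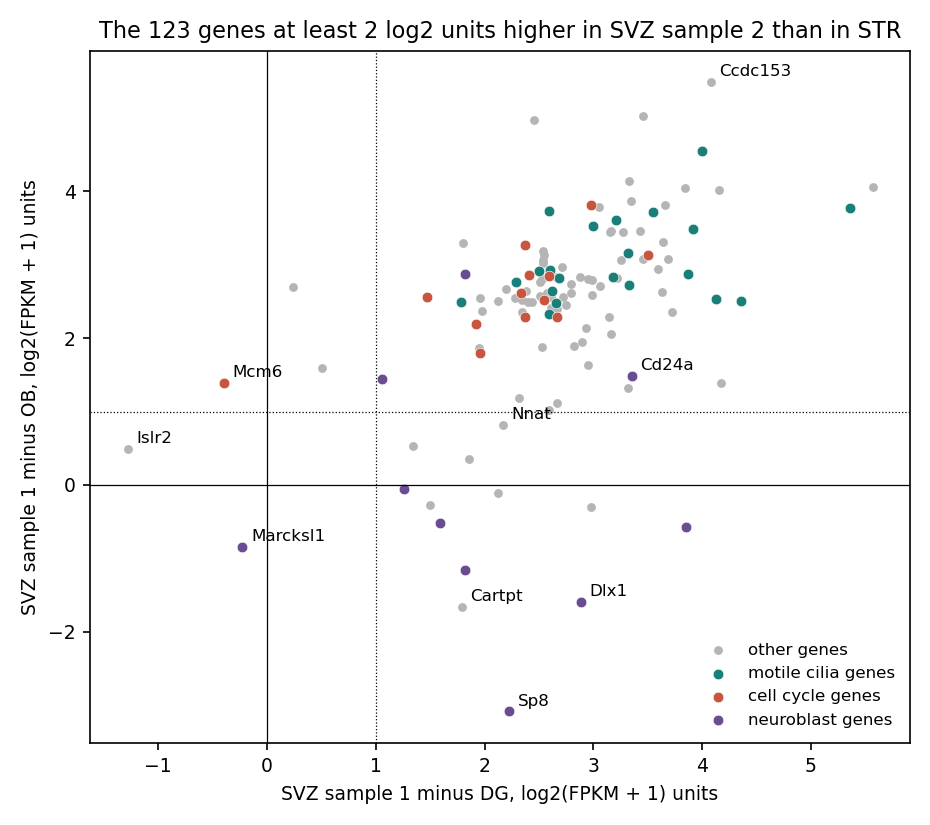
Each point is 1 of the 123 genes at least 2 units higher in SVZ sample 2 than in STR, placed by SVZ sample 1 minus DG on the horizontal and SVZ sample 1 minus OB on the vertical axis, in log2(FPKM + 1) units. Solid lines mark 0 and dotted lines 1 unit, and cilia genes lie above 1 on both axes while 7 of the 10 neuroblast genes lie below 1 on the OB axis.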

How the data were processed

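Poly(A) RNA of microdissected SVZ (2 samples), OB, DG and STR (1 sample each) was sequenced. The submitters' processing notes name CASAVA, TopHat 1.2.0 and Cufflinks 1.0.0, with mm9 as the genome. The deposited table holds FPKM values that the authors computed per transcript. Counts and depth are unknown, so no counting interval is given, and a value of 0 may be a failed estimate. FPKM is scaled to each library's own fragments.

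Values of coding RefSeq transcripts (accessions starting NM_) were summed by symbol with pandas 2.3.3 in Python 3.11.15. SVZ sample 2 and STR were compared on log2(FPKM + 1) over genes at 1 FPKM or more in either. With 1 library each, no test was run. The script was checked on simulated data. Current symbols and promoters came from RefSeq (GRCm38.p6), and GC content from GENCODE M21 transcripts. Gene coordinates are those of the table, counted from 1.

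Named genes were the 25 with the largest difference each way among genes at 5 FPKM or more whose sign held in SVZ sample 1, the first 4 and the extreme members of each list, and examples chosen after their values were seen. Members and lists were chosen with earlier results of these data known. Alternatives covered the pseudocount, filters, centring, transcript choice and the SVZ sample.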

Additional observations from a re-analysis of the deposited data

How the results depend on the processing

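No paired analysis was possible because SVZ sample 2 and STR are single libraries that share no replicate number. The 123 higher and 11 lower genes became 362 and 28 with a pseudocount of 0.1, 374 and 78 without SVZ replicate 2 (SVZ sample 1 in its place), and 200 and 20 with the mean of both SVZ samples. The median of motile cilia genes was 2.36 with a pseudocount of 0.1 and 2.02 without SVZ replicate 2, that of cell cycle genes 1.99 and 1.65. Without SVZ replicate 2 the median of neuroblast genes was 0.95 and that of striatal projection neuron genes 0.24 instead of -0.25, where the median of all genes was 0.40 instead of 0.06. The cause was not tested. The other settings gave 92 to 123 higher and 9 to 12 lower genes: no filter, a filter at 5 FPKM, centring on the median, the highest transcript, no transcripts under 200 bases and, chosen after seeing the data, centring within 20 bins of GC content and leaving out genes listed at 0. The 50 named genes kept their sign with a pseudocount of 0.1, centring, the highest transcript and no transcripts under 200 bases, as did the 49 that could be centred in GC bins. Their sign in SVZ sample 1 was a condition of being named and shows no stability.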

Other observations

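Symbol families, some of whose members are also on the lists, gave a coarse view of the same libraries. Among 218 symbol stems with 8 or more genes compared, the annexins, calcium-dependent membrane-binding proteins, had a median difference of 0.72 over 8 genes, and 1 was at least 1 unit higher. That was Anxa2, at 14.7 FPKM in SVZ sample 2 and 40.5 FPKM in SVZ sample 1, against 3.60 FPKM in STR. The Ccdc genes, named only for a coiled coil, had a median of 0.34 over 112 genes, with 24 at least 1 unit higher and none at least 1 unit lower. Of 32 kinesin genes (Kif) 10 were at least 1 unit higher, led by the spindle motor Kif11. The 8 augmin genes (Haus), which seed microtubules in the spindle, had a median of 0.43 and none at least 1 unit higher.

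Of 22 antigen presentation and interferon response genes, 1 was at least 1 unit higher. Ifitm3, a membrane protein that restricts virus entry, was at 23.4 FPKM in SVZ sample 2 and 68.8 FPKM in SVZ sample 1, against 7.16 FPKM in STR. B2m, the light chain of class I molecules, was lower in both SVZ samples by value, at 40.7 and 43.8 FPKM in SVZ samples 2 and 1, against 53.3 FPKM in STR.

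Cartpt and Islr2, which are on no list, were chosen here after their values were seen. Cartpt, a neuropeptide precursor, was at 7.05 FPKM in SVZ sample 2 and 0.707 FPKM in STR, and at 7.13 FPKM in SVZ sample 1 against 24.7 FPKM in OB. Islr2, a membrane protein of growing axons, was at 20.6 FPKM in SVZ sample 2 and 3.82 FPKM in STR, and at 43.6 FPKM in SVZ sample 1 against 107 FPKM in DG.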
